A study of Trichoderma reesei with 6 samples.

Results

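The genes described here are 144 of the 9113 genes in the deposited expression table of *Trichoderma reesei*, a filamentous fungus grown for its secreted cellulases. Their transcripts were more abundant in the deletion strain Δ*gul1* than in the reference strain QPP. In the gene lists of the study, none of them has an entry for a CAZy family (the classification of carbohydrate-active enzymes). Nor is any annotated there as a hydrophobin, chitinase, predicted GPI anchored protein, transporter, oxidase, dehydrogenase or reductase, though most have no annotation at all. The members were chosen by the values themselves. A gene had to reach a mean of at least 5 FPKM (fragments per kilobase of gene, scaled to a fixed total of mapped fragments) in Δ*gul1*, a ratio of at least 2.3 between its Δ*gul1* mean and its QPP mean, and a higher value in every Δ*gul1* library than in any QPP library. These conditions were met by 166 genes (1.82% of the table), of which 22 were left out by name or annotation, 11 of them for a CAZy family and 5 as predicted GPI anchored proteins. Because the strain contrast chose the members, their values are given below as a description, without a test.

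Both strains descend from QP4, a uridine auxotroph derived from *T. reesei* QM9414 by deletion of *pyr4*, and both carry the *pyrG* marker gene of *Aspergillus niger*. In Δ*gul1* the marker replaced the major part of *gul1*, while in QPP it sits at a random site and *gul1* is intact. Δ*gul1* is represented by 1 transformant. Each strain was first grown for 36 hr in minimal medium with glucose. Part of this preculture was then moved into fresh medium with 1% microcrystalline cellulose as the only carbon source, in 3 cultures per strain. These grew for another 48 hr, and poly(A) RNA of the mycelia was sequenced as paired reads. The libraries hold between 17654286 and 21659230 fragments, as recovered from the steps of the FPKM values. The *gul1* transcript (TRIREDRAFT_77084) was at 0.979, 0.581 and 0.746 FPKM in Δ*gul1* and 86.9, 82.4 and 79.9 FPKM in QPP, which matches the strain labels. Transcripts that mark mycelia on cellulose were present in all libraries, with the cellobiohydrolase gene *cel7a* at 9953 ± 465 FPKM in Δ*gul1* and 27852 ± 1289 FPKM in QPP (SD, n = 3 each), and the conidiophore regulator gene *brlA* (TRIREDRAFT_108357) was at 615 ± 35.5 FPKM in Δ*gul1* and 1149 ± 98.8 FPKM in QPP. In RNA of whole mycelia, fewer cells that express a gene cannot be told apart from less RNA of that gene per cell.

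Gul1 belongs to the family of the yeast protein Ssd1, an RNA-binding protein that associates with mRNAs, many of them for cell wall proteins, and holds back their translation. Loss of Ssd1 family proteins is known to weaken the cell wall and to alter the shape of hyphae. Transcript levels reflect such a loss only in part, since a regulator of translation can change protein output without changing the abundance of the message.

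Most members have no function given in the sources used here. The supplementary gene list of the study, which holds the genes it selected as changed on these same libraries, annotates 4 of them. A further 2 carry a symbol in the deposited table, which leaves 138 genes known by locus tag alone. For orientation only, the fit used below for other genes (limma, calling a gene at an unadjusted *p* under 0.05 if its log2 fold change exceeds 1, which puts 1.87% of the 9006 genes tested as higher and 2.09% as lower in Δ*gul1*) has 130 of the members past its thresholds, an outcome that the rule largely fixed. The remaining 14 had means between 5.03 and 15.1 FPKM in Δ*gul1*. The addition of 1 FPKM before the logarithm in that test lowers the fold change most at low levels. In the member at 15.1 FPKM, TRIREDRAFT_61227, Δ*gul1* library 2 was at 27.2 FPKM and the others at 9.54 and 8.5 FPKM. The libraries of the strains did not overlap for any member because the rule required it, and 39.5% of the table met that condition alone.

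The ratio of the Δ*gul1* mean to the QPP mean lay between 2.3 and 20.9 with a median of 2.94. It was at least 3 for 67 members, at least 5 for 23 and at least 10 for 5. A stricter view sets the lowest Δ*gul1* library against the highest QPP library. That quotient had a median of 2.29, was at least 2 for 105 members and was 1.07 for the member with the narrowest separation, TRIREDRAFT_104251. The deposited FPKM run higher in Δ*gul1* over the whole table, with a median log2 fold change of 0.14 over the 9006 genes tested, against 0.01 after the libraries were scaled by median-of-ratios size factors. After that scaling the median ratio of the members was 2.63, and 103 of the 144 still met the conditions. The ratios of the 41 that no longer did had been between 2.3 and 2.76.

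**Figure D1:**
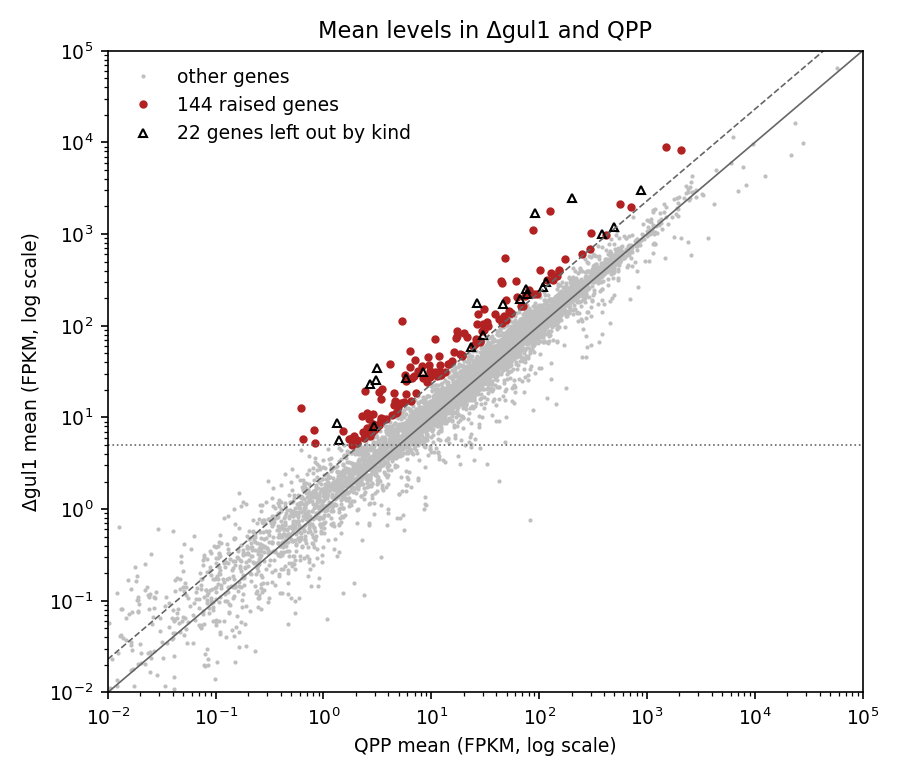
Mean FPKM in Δ*gul1* (vertical axis, log scale) against mean FPKM in QPP (horizontal axis, log scale) for each gene above 0.01 FPKM in both strains, with the 144 raised genes in red and the 22 genes left out by kind as open triangles. The solid line marks equal means, the dashed line a ratio of 2.3 and the dotted line 5 FPKM in Δ*gul1*, and the raised genes span means from 5.03 to 8822 FPKM in Δ*gul1*.

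The annotated members are enzymes that detoxify peroxide or attach sugars. TRIREDRAFT_106245 is annotated as a catalase, an enzyme that splits hydrogen peroxide into water and oxygen, and lies on its scaffold from 117728 to 119449 in the QM6a assembly. It was at 13, 15.6 and 15.1 FPKM in the Δ*gul1* libraries, against 4.72, 5.04 and 4.3 FPKM in the QPP libraries, a ratio of 3.11. The lowest Δ*gul1* library was 2.59 times the highest QPP library, so the strains were well apart at a modest level. Another catalase gene of the table, *cat1*, was at 0.395 ± 0.181 FPKM in Δ*gul1* and 0.283 ± 0.0617 FPKM in QPP (SD, n = 3 each), which leaves TRIREDRAFT_106245 as the more abundant of the pair.

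Glycosyltransferases belong to the CAZy classification too, but the list of the study gives these members no family entry, so the rule kept them. Among them, TRIREDRAFT_30250 is annotated as an N-acetylglucosaminyltransferase, a type of enzyme that transfers N-acetylglucosamine to a growing glycan. It was at 67.1, 63.3 and 74.8 FPKM in the Δ*gul1* libraries, against 27.4, 30.6 and 27.4 FPKM in the QPP libraries. TRIREDRAFT_4027 belongs to glycosyltransferase family 25 and was at 18, 18.8 and 18 FPKM in the Δ*gul1* libraries, against 7.12, 7.44 and 7.29 FPKM in the QPP libraries. Its replicates were among the most even of all members, the highest library exceeding the lowest 1.04-fold in Δ*gul1* and 1.04-fold in QPP. TRIREDRAFT_73134 belongs to family 20, the family of the trehalose-6-phosphate synthases, which make the precursor of the storage and protectant sugar trehalose. It was far less abundant, at 4.62, 6.77 and 5.25 FPKM in the Δ*gul1* libraries, against 1.82, 1.97 and 1.87 FPKM in the QPP libraries. The ratios of these 3 genes were 2.4, 2.51 and 2.94, against a median of 2.94 over all members.

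The members with a symbol are *hxt1* and *tr42600*. The symbol *hxt1* is that of a hexose transporter, a membrane protein that takes up sugars such as glucose, and it stayed among the members because the study's list gives the gene no annotation that names a transporter. Its annotated span is 5904 bp, far above the median of 1503 bp over all genes. Whether this gene model holds only a transporter transcript was not tested. *hxt1* was at 130.2, 140.5 and 138 FPKM in the Δ*gul1* libraries, against 53.4, 55.5 and 55.1 FPKM in the QPP libraries, a ratio of 2.49 with tight replicates in both strains. *tr42600* was at 304, 314 and 298 FPKM in the Δ*gul1* libraries, against 76.7, 59.3 and 48.5 FPKM in the QPP libraries, a ratio of 4.97. The QPP libraries of *tr42600* differed more among themselves than its Δ*gul1* libraries did, and the lowest Δ*gul1* value was still 3.89 times the highest QPP value.

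By level, a few short genes stood far above the rest. TRIREDRAFT_33827 spans 408 bp (from 150435 to 150842 on its scaffold) and was at 9169, 8669 and 8629 FPKM in the Δ*gul1* libraries, against 1629, 1750.5 and 1153 FPKM in the QPP libraries. It ranked 6 of all genes by mean level in Δ*gul1* and 46 in QPP. TRIREDRAFT_111915, of 432 bp (from 132080 to 132511), was at 8412, 7845 and 8756 FPKM in the Δ*gul1* libraries, against 2227, 2182 and 1852 FPKM in the QPP libraries, and it ranked 7 in Δ*gul1* and 33 in QPP. Both genes were thus abundant in the reference strain already, and their ratios were 5.84 and 4.0. Together they made up 44.9% of the summed FPKM of all 144 members in Δ*gul1* and 37.2% in QPP.

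Below them, TRIREDRAFT_107037 (304 bp) was at 2119, 1979.5 and 2261 FPKM in the Δ*gul1* libraries, against 606, 568 and 509 FPKM in the QPP libraries. TRIREDRAFT_105533 (339 bp) was at 1809.9, 1652 and 2395 FPKM in the Δ*gul1* libraries, against 622, 714 and 812 FPKM in the QPP libraries, with Δ*gul1* library 3 well above the other two. TRIREDRAFT_59151 (465 bp) was at 1843, 1737 and 1831 FPKM in the Δ*gul1* libraries, against 121, 136 and 124 FPKM in the QPP libraries. While TRIREDRAFT_107037 and TRIREDRAFT_105533 were also abundant in QPP, TRIREDRAFT_59151 ranked 46 in Δ*gul1* and only 1102 in QPP, the largest step among the 5 most abundant members. Its spread within a strain was small, the highest library exceeding the lowest 1.06-fold in Δ*gul1* and 1.12-fold in QPP.

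TRIREDRAFT_123236 (620 bp) was at 1163, 1320.5 and 841 FPKM in the Δ*gul1* libraries, against 104, 122 and 36.5 FPKM in the QPP libraries, so that both strains varied and QPP library 3 was far below the others. TRIREDRAFT_123955 (735 bp) was low in QPP library 3 as well, at 1201, 992 and 908 FPKM in the Δ*gul1* libraries, against 329, 360.2 and 219 FPKM in the QPP libraries. TRIREDRAFT_102908 (582 bp) was steadier, at 948, 1025 and 993 FPKM in the Δ*gul1* libraries, against 438, 386 and 423 FPKM in the QPP libraries. The other genes among the 12 most abundant were TRIREDRAFT_70907, TRIREDRAFT_107704, TRIREDRAFT_61526 and TRIREDRAFT_121415, with means between 530.4 and 682 FPKM in Δ*gul1* and between 48 and 296 FPKM in QPP. In each of these 4 genes the lowest Δ*gul1* library was at least 1.85 times the highest QPP library.

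**Figure D2:**
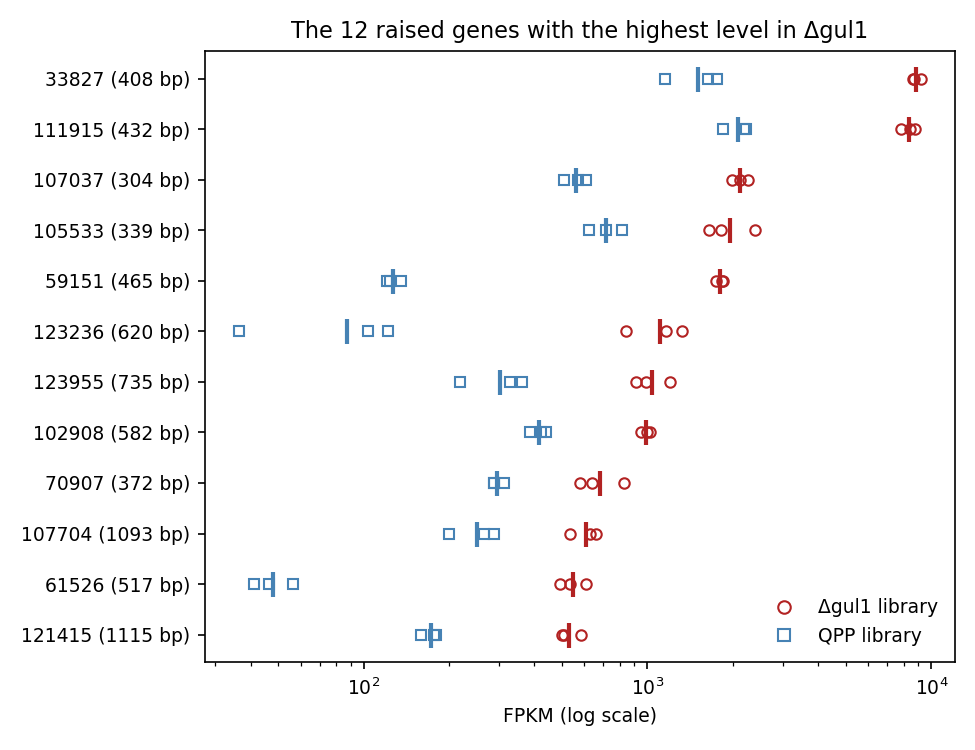
FPKM (horizontal axis, log scale) of the 12 raised genes with the highest mean in Δ*gul1*, by locus number and gene span in base pairs, with 3 Δ*gul1* libraries as red circles, 3 QPP libraries as blue squares and means as vertical bars. The topmost genes, TRIREDRAFT_33827 and TRIREDRAFT_111915, lie apart from the rest in all Δ*gul1* libraries, and TRIREDRAFT_59151, TRIREDRAFT_123236 and TRIREDRAFT_61526 show the widest distance between the strains.

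The abundant members are short. The 12 members at or above 500 FPKM in Δ*gul1* had a median span of 491 bp, and the longest of them spanned 1115 bp. The 236 other genes of the table at that level had a median span of 978 bp. Over all 144 members the median span was 1135 bp, against 1503 bp over all genes of the table. FPKM divides by gene length, and for genes close to the insert length of the libraries that division is least certain, so levels of short genes are less comparable with those of long genes than their ratios between strains are.

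Summed over the members, the level was 39101, 37561 and 37995 FPKM in the Δ*gul1* libraries, against 10199, 10184 and 8604 FPKM in the QPP libraries. As a share of all FPKM this was 4.2, 4.3 and 4.21% in Δ*gul1* and 1.2, 1.18 and 0.974% in QPP. Most members contributed little to it. The median member was at 37.4 FPKM in Δ*gul1* and 11 FPKM in QPP. The typical member thus lay near the middle of all genes in Δ*gul1* (median 32.5 FPKM) and well below it in QPP (median 29.1 FPKM). Given the first, the second follows from the ratio of at least 2.3 that the rule requires.

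By ratio, TRIREDRAFT_70919 stood first. This gene of 498 bp (from 36346 to 36843) was at 136, 123 and 80.5 FPKM in the Δ*gul1* libraries, against 4.97, 7.69 and 3.56 FPKM in the QPP libraries, a ratio of 20.9. TRIREDRAFT_104816 followed with 20.3, at 12.3, 14.2 and 11.4 FPKM in the Δ*gul1* libraries, against 0.885, 0.724 and 0.253 FPKM in the QPP libraries. Here the QPP values rest on few fragments, 373, 367 and 323 fragments in the Δ*gul1* libraries and 26, 23 and 7 in the QPP libraries, and QPP library 3 was far below the other two. The strains remained wide apart in both genes, with a lowest Δ*gul1* library 10.5 and 12.9 times the highest QPP library.

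TRIREDRAFT_59151, described above by its level, came next with a ratio of 14.2, and TRIREDRAFT_123236 and TRIREDRAFT_61526 followed with 12.7 and 11.4. TRIREDRAFT_61526 (517 bp) was at 491, 609 and 535 FPKM in the Δ*gul1* libraries, against 46.4, 56.5 and 41 FPKM in the QPP libraries. Of the members with a ratio of at least 10, TRIREDRAFT_59151 and TRIREDRAFT_61526 varied less, while TRIREDRAFT_70919, TRIREDRAFT_104816 and TRIREDRAFT_123236 had QPP libraries that differed by more than 2 times.

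TRIREDRAFT_106378 had a ratio of 9.31 and holds a place that the other members do not. It lies from 495878 to 496894, and in the QM6a gene models 1863 bp separate it from *gul1*, where the marker cassette was inserted in Δ*gul1* but not in QPP. The study describes that *gul1* model as incomplete at the start of the protein and the strand is not in the table used, so the gap may be shorter. It was at 36.6, 38.8 and 40.1 FPKM in the Δ*gul1* libraries, against 3.1, 4.13 and 5.18 FPKM in the QPP libraries. On the far side of the deleted gene, TRIREDRAFT_121363 was at 42.3, 41.5 and 40.3 FPKM in Δ*gul1* and 37.3, 38.6 and 35.6 FPKM in QPP, with a log2 fold change near 0 whose sign depended on the scaling. The next gene beyond TRIREDRAFT_106378, TRIREDRAFT_33894, had a log2 difference of 0.09 (SE 0.117, limma, Benjamini-Hochberg adjusted *p* = 0.608). The strains differ at this place in the cassette as well as in Gul1, and these cannot be told apart for TRIREDRAFT_106378.

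The remaining genes among the 12 highest ratios were TRIREDRAFT_57204, TRIREDRAFT_59759, TRIREDRAFT_121177, TRIREDRAFT_110843, TRIREDRAFT_123199 and TRIREDRAFT_81004, with ratios between 6.58 and 8.99. TRIREDRAFT_121177 was at 49.8, 59.1 and 51.3 FPKM in the Δ*gul1* libraries, against 6.6, 5.98 and 6.33 FPKM in the QPP libraries, among the cleanest separations of these. TRIREDRAFT_123199 was the most abundant of them, at 332, 293 and 297 FPKM in the Δ*gul1* libraries, against 51.6, 45.9 and 36.3 FPKM in the QPP libraries. TRIREDRAFT_59759 was the least abundant and rests on 64, 57 and 54 fragments in the Δ*gul1* libraries and 5, 12 and 4 in the QPP libraries, so its ratio of 8.98 is the least certain of the group. Over all members, 4 had fewer than 10 fragments in a QPP library, and none had 3 or fewer in any library.

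**Figure D3:**
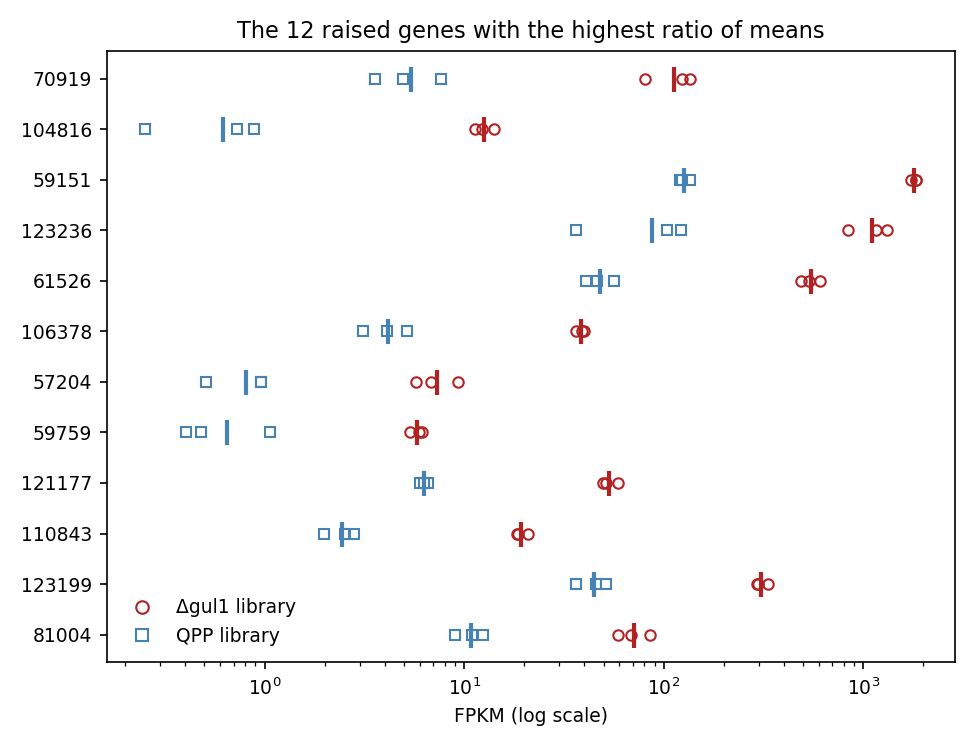
FPKM (horizontal axis, log scale) of the 12 raised genes with the highest ratio of means, by locus number from the highest ratio downward, with 3 Δ*gul1* libraries as red circles, 3 QPP libraries as blue squares and means as vertical bars. The genes cover mean levels from 5.83 to 1804 FPKM in Δ*gul1*, and the QPP libraries of TRIREDRAFT_104816 and TRIREDRAFT_123236 are the most spread out.

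At the edge of the rule the choice of threshold decides membership. The members with the lowest ratios were TRIREDRAFT_53079, TRIREDRAFT_70907 and TRIREDRAFT_71170 at 2.3, 2.3 and 2.31. TRIREDRAFT_71170 overlaps the annotated span of its neighbour TRIREDRAFT_112689, which is listed at 0 in all 6 libraries, and no other member overlaps a neighbouring gene. Just outside were TRIREDRAFT_109972 with a ratio of 2.28, TRIREDRAFT_4430 with 2.27 and TRIREDRAFT_124115 with 2.25. The last 2 are annotated, as the developmental regulator WetA, which acts late in the formation of conidia in *Aspergillus*, and as phosphoenolpyruvate carboxykinase, which commits carbon to gluconeogenesis. At the threshold on level, TRIREDRAFT_107185, TRIREDRAFT_119844 and TRIREDRAFT_105808 were just inside with Δ*gul1* means of 5.03, 5.25 and 5.29 FPKM, and TRIREDRAFT_112146, TRIREDRAFT_67699 and TRIREDRAFT_107172 just outside with 4.99, 4.84 and 4.76 FPKM.

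Members often lay side by side. In gene order, 28 of the 144 (19.4%) were direct neighbours of another member, while 3.04% of all genes of the table were direct neighbours of a member. These genes formed 12 runs, of which 9 held 2 genes, 2 held 3 and 1 held 4. The 24 genes that border the runs are not members by construction, and 9 of them were higher and 4 lower at an adjusted *p* under 0.05 (limma, Benjamini-Hochberg, which gives 14.5% higher and 15.0% lower over all genes, members included).

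The longest run holds TRIREDRAFT_4146, TRIREDRAFT_62165, TRIREDRAFT_78462 and TRIREDRAFT_32243, 4 genes between 941073 and 948558 on 1 scaffold, with gaps of 388, 704 and 575 bp. None of them has an annotation or symbol in the sources used here. TRIREDRAFT_4146 was at 69.8, 79.4 and 80.6 FPKM in the Δ*gul1* libraries, against 18.5, 19.9 and 13.8 FPKM in the QPP libraries. TRIREDRAFT_62165 was at 68.9, 66.5 and 84.6 FPKM in the Δ*gul1* libraries, against 20, 15.6 and 15.4 FPKM in the QPP libraries, and TRIREDRAFT_78462 at 44, 48.9 and 44.2 FPKM in the Δ*gul1* libraries, against 10.8, 9.78 and 7.62 FPKM in the QPP libraries. These 3 genes had similar ratios of 4.4, 4.31 and 4.85. TRIREDRAFT_32243 was higher in level and had the most even replicates of all members, at 112, 109.6 and 111 FPKM in the Δ*gul1* libraries, against 32.5, 32.6 and 32.4 FPKM in the QPP libraries.

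More raised genes lie close to this run. The member TRIREDRAFT_62576 lies 1 gene further out, at 197, 179.8 and 193 FPKM in the Δ*gul1* libraries, against 53.7, 47.3 and 48 FPKM in the QPP libraries, and the gene in between, TRIREDRAFT_62244, was higher in Δ*gul1* as well without reaching the ratio, at 34, 33.5 and 38.2 FPKM in the Δ*gul1* libraries, against 16, 17 and 17.2 FPKM in the QPP libraries (limma, log2 fold change 0.88, SE 0.076, Benjamini-Hochberg adjusted *p* = 0.000161). On the other side, with 3 genes in between, is the gene of the cell wall protein PhiA, TRIREDRAFT_122127, one of the genes left out by name, at 3424, 2849.7 and 2915 FPKM in the Δ*gul1* libraries, against 967, 965 and 719 FPKM in the QPP libraries. Beyond it, TRIREDRAFT_78465 and TRIREDRAFT_4152 had log2 fold changes of 0.51 and 0.57 (adjusted *p* = 0.00821 and 0.0015, same limma test), and the next 4 genes had smaller differences. The member TRIREDRAFT_107960 ends this stretch, at 156, 166 and 139.7 FPKM in the Δ*gul1* libraries, against 31.4, 34.4 and 26.1 FPKM in the QPP libraries. From TRIREDRAFT_62576 to TRIREDRAFT_107960 the region covers 17 genes, of which 6 are members. Directly outside it, before TRIREDRAFT_62576, TRIREDRAFT_62747 and TRIREDRAFT_122124 were lower in Δ*gul1* (log2 fold changes of −0.40 and −0.71, adjusted *p* = 0.0093 and 0.000367, same limma test). With the FPKM as deposited, TRIREDRAFT_4154 and TRIREDRAFT_62747 did not pass (limma, adjusted *p* = 0.238 and 0.0605).

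A pair of members flanks *ooc1*, a gene left out by name. In order, TRIREDRAFT_122975, TRIREDRAFT_66077, *ooc1* and TRIREDRAFT_65736 follow each other between 36186 and 45009 on their scaffold. *ooc1* itself was at 1903, 1758 and 1413 FPKM in Δ*gul1* and 109, 119 and 45 FPKM in QPP. The members beside it were much less abundant. TRIREDRAFT_66077 was at 15.2, 17.8 and 14.1 FPKM in the Δ*gul1* libraries, against 4.6, 4.4 and 1.35 FPKM in the QPP libraries, and TRIREDRAFT_65736 was at 9.96, 10.1 and 10.9 FPKM in the Δ*gul1* libraries, against 1.3, 1.7 and 3.9 FPKM in the QPP libraries. TRIREDRAFT_122975, annotated as a probable GPI anchored protein and left out for that, was at 8.34, 11.7 and 6.3 FPKM in Δ*gul1* and 1.71, 1.78 and 0.51 FPKM in QPP. QPP library 3 was the lowest for TRIREDRAFT_122975, TRIREDRAFT_66077 and *ooc1* and the highest for TRIREDRAFT_65736. Without QPP replicate 3 the ratio of TRIREDRAFT_65736 was 6.87, against 4.48 with all libraries. The next genes outward, TRIREDRAFT_80086 and TRIREDRAFT_65971, had adjusted *p* of 0.609 and 0.268 in the limma test.

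**Figure D4:**
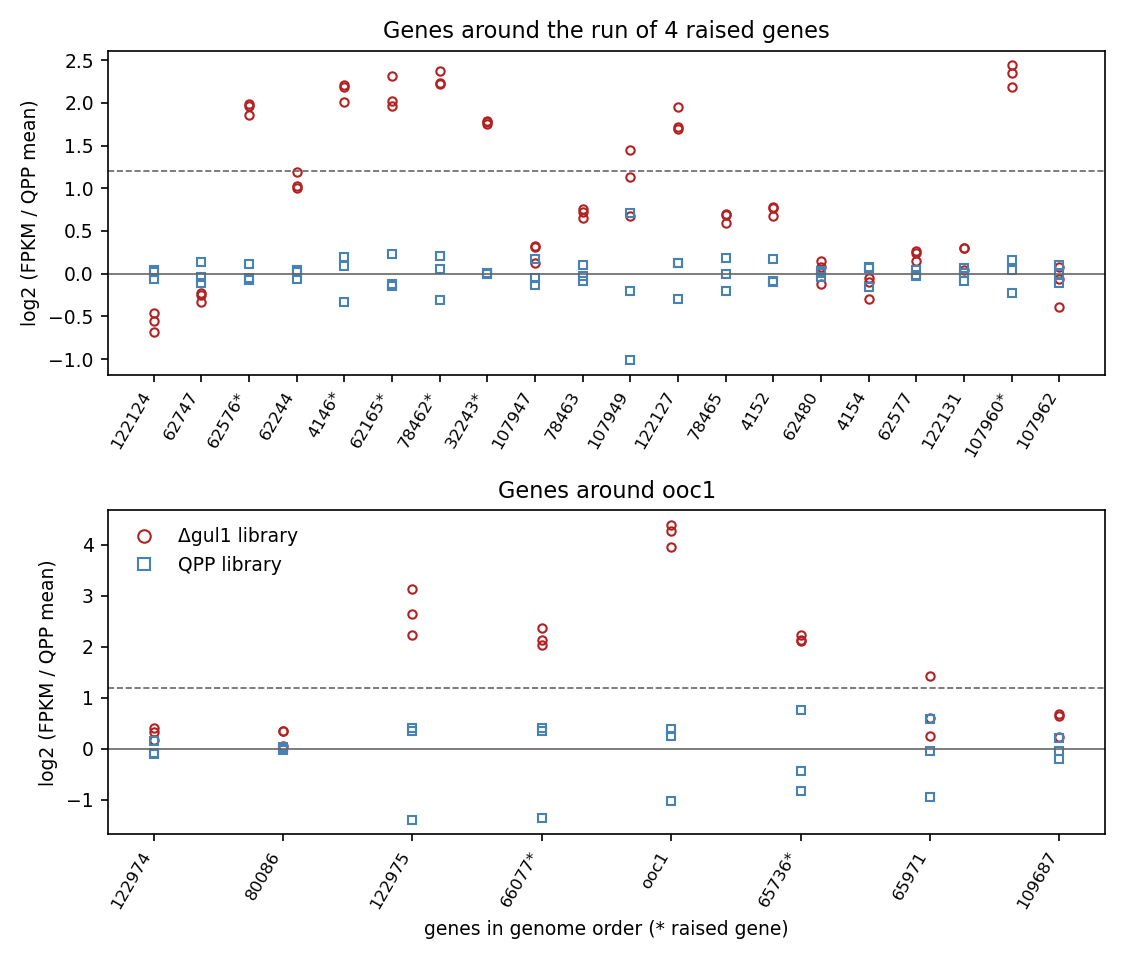
FPKM of each library divided by the QPP mean of the gene (vertical axis, log2 scale) for consecutive genes in genome order, by locus number or symbol, around the run of 4 raised genes (top) and around *ooc1* (bottom). Red circles are Δ*gul1* libraries, blue squares QPP libraries, asterisks mark raised genes, the dashed line a ratio of 2.3, and TRIREDRAFT_107961, listed at 0 in a library, is not drawn. In both stretches raised genes stand beside genes whose strains lie close together.

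In the run TRIREDRAFT_105532, TRIREDRAFT_105533 and TRIREDRAFT_120993, an abundant short gene stands between a pair of genes of low level. TRIREDRAFT_105533 was given above, and TRIREDRAFT_105532 was at 4.95, 3.5 and 9.18 FPKM in the Δ*gul1* libraries, against 1.21, 1.74 and 2.28 FPKM in the QPP libraries. TRIREDRAFT_120993 begins 64 bp after the end of TRIREDRAFT_105533 and was at 7.26, 6.46 and 9.78 FPKM in the Δ*gul1* libraries, against 1.86, 2.34 and 4.17 FPKM in the QPP libraries. All 3 genes were highest in Δ*gul1* library 3 and lowest in Δ*gul1* library 2, and in QPP all 3 were lowest in library 1 and highest in library 3. Over a distance of 64 bp, and with the strand setting of the counting not given in the sources used here, fragments of the abundant gene that reach into its neighbour cannot be told apart from transcripts of TRIREDRAFT_120993.

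The run of TRIREDRAFT_59759 and TRIREDRAFT_59151 joins one of the genes with the highest ratios to a much weaker neighbour, with 1466 bp between them. The genes that border it, TRIREDRAFT_59482 and TRIREDRAFT_35726, had adjusted *p* of 0.437 and 0.992 (limma, Benjamini-Hochberg), and TRIREDRAFT_35726 was close to 0 FPKM in all libraries. In the run TRIREDRAFT_122375, TRIREDRAFT_108418 and TRIREDRAFT_108419, the ratios were 3.22, 2.71 and 2.97 at means of 99.8, 9.72 and 7.59 FPKM in Δ*gul1*. The gene before this run, TRIREDRAFT_122374, went the other way, with 802 ± 143 FPKM in Δ*gul1* and 1165 ± 58.7 FPKM in QPP (SD, n = 3 each; adjusted *p* = 0.0055, same limma test). A sharp border thus lay between neighbours 1653 bp apart.

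The other runs are pairs. *tr42600* and TRIREDRAFT_77998 are separated by 960 bp, and TRIREDRAFT_77998 was at 228, 199 and 196 FPKM in the Δ*gul1* libraries, against 63, 64.2 and 60.1 FPKM in the QPP libraries, while the genes on either side, TRIREDRAFT_77991 and TRIREDRAFT_48170, did not pass the adjusted threshold. TRIREDRAFT_44628 and TRIREDRAFT_54260 had ratios of 2.94 and 5.55, and TRIREDRAFT_54260 was at 34.4, 38.7 and 33.7 FPKM in the Δ*gul1* libraries, against 6.04, 7.28 and 5.91 FPKM in the QPP libraries. TRIREDRAFT_106646 and TRIREDRAFT_106647 had nearly equal ratios of 2.62 and 2.65 at levels of 401 and 41.3 FPKM on average in Δ*gul1*. TRIREDRAFT_111681 and TRIREDRAFT_111682 had 4.37 and 2.5, TRIREDRAFT_108665 and TRIREDRAFT_64288 had 4.05 and 2.66, and TRIREDRAFT_82662 and TRIREDRAFT_112665 had 2.48 and 2.89.

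The family 20 glycosyltransferase gene TRIREDRAFT_73134 is the neighbour of TRIREDRAFT_3292, 913 bp away, which was at 8.89, 9.58 and 10.1 FPKM in the Δ*gul1* libraries, against 3.1, 4.32 and 3.87 FPKM in the QPP libraries. The next gene, TRIREDRAFT_59372, was higher in Δ*gul1* without reaching the ratio, at 152 ± 8.36 FPKM in Δ*gul1* and 73.5 ± 14.6 FPKM in QPP (SD, n = 3 each; log2 fold change 0.90, SE 0.132, limma, Benjamini-Hochberg adjusted *p* = 0.00202). TRIREDRAFT_112277 and TRIREDRAFT_23415 lie 3690 bp apart and differ in level by far, with TRIREDRAFT_112277 at 8.42, 6.57 and 5.85 FPKM in Δ*gul1* and 3.47, 2.14 and 1.38 FPKM in QPP and TRIREDRAFT_23415 at 376, 376 and 367 FPKM in Δ*gul1* and 147, 131 and 109 FPKM in QPP. Taking the 16 pairs of adjacent members, the library in which the first gene was highest was also that of the second in 8 of 16 cases in Δ*gul1* and in 12 of 16 in QPP. Over all adjacent genes of at least 5 FPKM in Δ*gul1* these shares were 36.8% and 37.8%.

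Higher levels were more frequent directly beside a member than far from one. Among the 248 other genes tested that lie directly beside a member, 6 (2.42%) were called higher, against 27 (0.349%) of the 7726 other genes more than 5 genes away, and 4 of the 6 belong to the kinds left out by the rule. These are *ooc1*, TRIREDRAFT_122975, TRIREDRAFT_122495 beside TRIREDRAFT_108655, and TRIREDRAFT_124277 beside TRIREDRAFT_112609. The other 2 are TRIREDRAFT_109030, next to TRIREDRAFT_109031, and TRIREDRAFT_109101, next to TRIREDRAFT_122724, both below 5 FPKM in Δ*gul1* with log2 fold changes of 1.37 (SE 0.154) and 1.13 (SE 0.0929). Called lower were 7 of the 248 (2.82%), against 159 (2.06%) of the 7726 genes more than 5 genes away. At an adjusted *p* under 0.05, 59 of the 248 (23.8%) were higher and 38 (15.3%) lower. Among the genes more than 5 genes away these shares were 12.7% and 15.1%. At 2 genes from the nearest member, 34 of 232 genes (14.7%) were higher.

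The members differed in how evenly the cultures of a strain expressed them. The highest library of a strain was at most 1.1 times the lowest, in both strains, for 6 members, among them TRIREDRAFT_32243, TRIREDRAFT_4027, TRIREDRAFT_60987 and *hxt1*. For 22 members it was at least 2 times the lowest in a strain, in Δ*gul1* for 7 and in QPP for 16, with TRIREDRAFT_50616 in both. The even genes had a median of 74.7 FPKM in Δ*gul1* and the uneven ones 14.7 FPKM.

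In some members a single library stood out. After scaling, Δ*gul1* library 2 was at least 1.5 times both others for 7 members (4.86%), while 0.313% of the 7345 genes of at least 5 FPKM in Δ*gul1* showed this. In QPP library 3 the level was at least 1.5 times below both others for 10 members (6.94%), against 0.640% of those genes. There were cases in the other direction too, with QPP library 3 at least 1.5 times above both others for 5 members (3.47%, against 0.422% of those genes) and Δ*gul1* library 3 at least 1.5 times below both for 4 (2.78%, against 0.300%). QPP libraries 1 and 2 were at least 1.5 times above both others for 3 members each (2.08%, against 0.109% and 0.136%). A high Δ*gul1* library or a low QPP library helps a gene to meet the rule, so these shares are not independent of how the members were chosen. The comparison genes were filtered on their Δ*gul1* level alone, while the members had lower QPP levels (median 11 FPKM, against 29.1 FPKM over all genes). The part of low QPP levels in these shares was not tested. TRIREDRAFT_119552 and TRIREDRAFT_72379 showed both features, and TRIREDRAFT_112258 showed the low QPP library 3 but narrowly missed the threshold in Δ*gul1* library 2. TRIREDRAFT_119552 was at 255, 397 and 227 FPKM in the Δ*gul1* libraries, against 57.9, 57 and 20.8 FPKM in the QPP libraries. TRIREDRAFT_112258 was at 37.5, 56.7 and 33.7 FPKM in the Δ*gul1* libraries, against 9.37, 8.09 and 3.53 FPKM in the QPP libraries, and TRIREDRAFT_72379 was at 113, 187 and 107 FPKM in the Δ*gul1* libraries, against 31.9, 32.8 and 15.8 FPKM in the QPP libraries. They lie apart in the genome. Over all 6 libraries, TRIREDRAFT_119552 was between 5.88 and 7.04 times TRIREDRAFT_112258, while it ranged more widely against TRIREDRAFT_72379, between 1.32 and 2.26 times, and TRIREDRAFT_72379 was between 3.0 and 4.47 times TRIREDRAFT_112258.

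**Figure D5:**
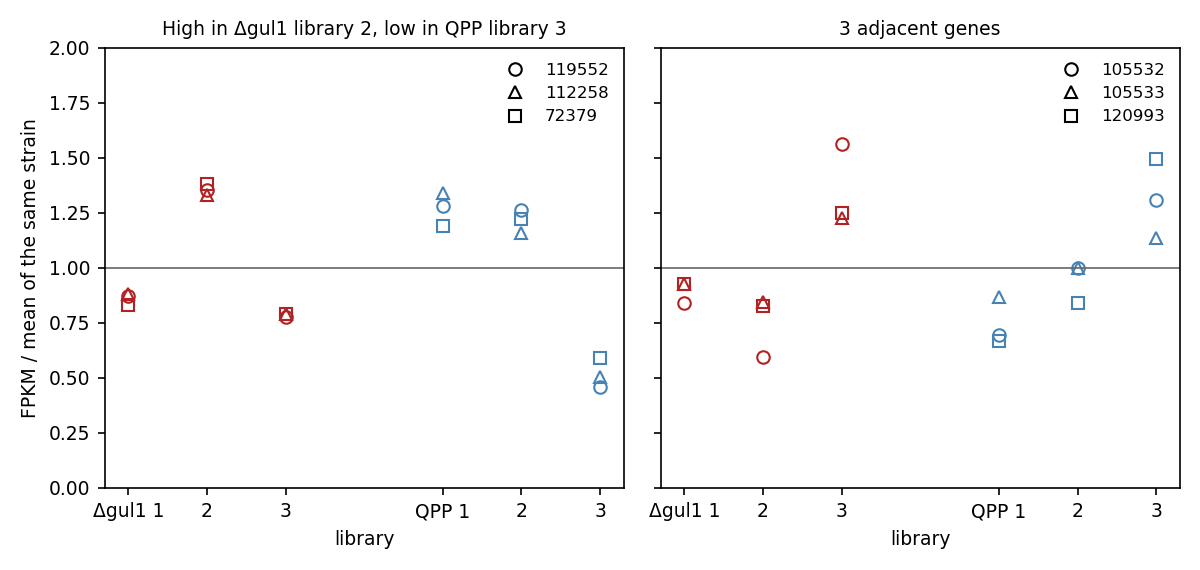
FPKM of each library divided by the mean of its own strain (vertical axis) for 3 raised genes that are high in Δ*gul1* library 2 and low in QPP library 3 (left) and for 3 adjacent raised genes (right), with a symbol for each gene, Δ*gul1* libraries in red and QPP libraries in blue. The genes on the left share 1 order of libraries in Δ*gul1* and those on the right share 1 order in both strains.

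Some of the members with a narrow separation had a single library far from the others of its strain. TRIREDRAFT_61227 was at 9.54, 27.2 and 8.5 FPKM in the Δ*gul1* libraries, against 7.2, 6.8 and 5.49 FPKM in the QPP libraries, and without Δ*gul1* replicate 2 its ratio was 1.39 in place of 2.32, below the threshold. TRIREDRAFT_62380 was at 30.8, 58.2 and 24.1 FPKM in the Δ*gul1* libraries, against 10.6, 15.9 and 9.92 FPKM in the QPP libraries, also led by Δ*gul1* library 2. TRIREDRAFT_104251 and TRIREDRAFT_111082 were low in Δ*gul1* library 3, which was 1.07 and 1.16 times the highest QPP library. TRIREDRAFT_61227 and TRIREDRAFT_65736 were the only members whose ratio moved by more than 1.5 times when any 1 library was left out. The rule as a whole kept between 127 and 138 of the 144 genes with each library left out in turn.

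Lists of genes were drawn up for the functions of the annotated members, peroxide defence and glycosyltransferases, and for those of the annotated genes just outside the rule, gluconeogenesis and conidiation. The lists are short, since annotation was at hand only for genes that the study selected on these libraries and for genes with a symbol, and the genes selected by the study are no independent evidence of direction. The list of glycosyltransferases held 5 genes besides the 3 members, of which 1 was higher, 1 lower and 3 did not pass an adjusted *p* of 0.05 (limma, Benjamini-Hochberg), with a median log2 fold change of −0.02, against 0.01 over all genes tested. TRIREDRAFT_66888, an α-1,3-mannosyltransferase gene of family 71, rose to 3.13 ± 0.143 FPKM in Δ*gul1*, against 0.875 ± 0.236 FPKM in QPP (limma, log2 fold change 1.05, SE 0.108, adjusted *p* = 0.000363). TRIREDRAFT_69868, of family 15, fell to 5.01 ± 0.673 FPKM in Δ*gul1*, against 20.7 ± 5.67 FPKM in QPP (limma, log2 fold change −1.97, SE 0.194, adjusted *p* = 0.000301). The genes known by symbol, *dpm1* (dolichol phosphate mannose synthase), *pmt1* (protein O-mannosyltransferase) and *gys1* (glycogen synthase), had log2 fold changes of 0.11, −0.13 and −0.02, and the signs of *pmt1* and *gys1* depended on the scaling. With the FPKM as deposited *dpm1* was higher as well (log2 fold change 0.27, adjusted *p* = 0.00571, same limma test).

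For peroxide defence, the superoxide dismutase gene *sod1* and *cat1* were the only genes besides the catalase member. *sod1* had a log2 fold change of −0.03 whose sign depended on the scaling, and that of *cat1* was 0.07, with adjusted *p* of 0.866 and 0.663 (limma, Benjamini-Hochberg). For gluconeogenesis and acetate use, 2 of 6 genes were higher, 1 was lower and 3 did not pass, while 4 were higher and 0 lower with the FPKM as deposited, and 3 higher and 0 lower after quantile normalization. The phosphoenolpyruvate carboxykinase gene TRIREDRAFT_124115, just outside the rule, rose to 44.2 ± 3.28 FPKM in Δ*gul1*, against 19.7 ± 2.37 FPKM in QPP (limma, log2 fold change 0.98, SE 0.106, adjusted *p* = 0.000479). The malate synthase gene *acu9*, of the glyoxylate cycle, was at 117 ± 6.12 FPKM in Δ*gul1* and 79.5 ± 6.0 FPKM in QPP (limma, log2 fold change 0.40, SE 0.0725, adjusted *p* = 0.00556), and the isocitrate lyase gene *acu3* of the same cycle had a log2 fold change of 0.31 (adjusted *p* = 0.0541). *acu3* passed with the FPKM as deposited (limma, adjusted *p* = 0.00894) and after quantile normalization (adjusted *p* = 0.0437), and so did the pyruvate carboxylase gene *pyc1* with the FPKM as deposited (adjusted *p* = 0.0241). The acetyl-CoA synthetase gene *acs1* was the lower one, with −0.20 (adjusted *p* = 0.0308), which was −0.04 (adjusted *p* = 0.617) with the FPKM as deposited, and it passed in 2 of the 6 fits that left out a library.

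The regulators of conidiation moved in opposite directions. TRIREDRAFT_4430 (*wetA*), just outside the rule, was at 14.9, 20 and 16.1 FPKM in the Δ*gul1* libraries, against 7.69, 8.85 and 5.87 FPKM in the QPP libraries (limma, log2 fold change 0.95, SE 0.157, Benjamini-Hochberg adjusted *p* = 0.00357). *brlA*, which acts before *wetA* in *Aspergillus*, fell to 615 ± 35.5 FPKM in Δ*gul1*, against 1149 ± 98.8 FPKM in QPP (limma, log2 fold change −1.06, SE 0.0893, adjusted *p* = 0.000147). The spore-associated hydrophobin gene *hfb2* was at 64835 ± 2473 FPKM in Δ*gul1* and 57708 ± 866 FPKM in QPP (SD, n = 3 each). After scaling, its log2 fold change was 0.009 (limma, SE 0.497, adjusted *p* = 0.991). That SE comes mainly from the variance trend that limma fits over all genes, and the libraries of *hfb2* themselves varied far less. The SE and *p* are therefore no measure of its replicate spread. The part of conidiation in the levels of the members was not tested.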

How the data were processed

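The authors used cutadapt for trimming, HISAT2 for mapping to the *T. reesei* QM6a assembly and HTSeq for counting per gene. What they deposited is FPKM for 9113 genes in each of 6 libraries. The versions of these tools and the strand setting are not given in the sources used here. The deposited FPKM were not scaled between libraries, and short genes gain most uncertainty from the division by length.

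Members were chosen on the deposited FPKM, with annotation and identifiers from the study's supplementary lists. The members and the gene lists were chosen with earlier results of these data known. Named members were those with an annotation or symbol, the 12 highest by level and by ratio, those adjacent in gene order with their bordering genes, and those at the thresholds. The genes around *ooc1* and beyond the borders of runs, the even and uneven members and the genes marked by 1 library were added after their values had been seen.

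For tests, log2(FPKM + 1) was taken after dividing by median-of-ratios size factors and modelled by strain alone in R 4.3.3, using the trended eBayes of limma 3.58.1, over 9006 genes above 0 in at least 1 library. This fold change understates that of genes of low FPKM. Calls need an unadjusted *p* under 0.05 with a log2 fold change beyond 1 in either direction, and Benjamini-Hochberg adjustment ran over all of these genes. The study's own calls used a count model (DESeq) and were not used. The fit was tested on simulated data. With 3 libraries per strain, the smallest *p* of an exact permutation test would be 0.1.

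Fragments per gene were recovered from the steps of the FPKM, which gives the depth, for 9002 of the 9006 genes. Where several gene lengths were possible the longest was taken, so those counts are upper bounds. Gene order and coordinates (1-based) come from the RefSeq gene table of the same assembly, which matched 9109 of the 9113 genes and holds no scaffold names, strands or sequences, so scaffolds were told apart only where positions fell back. Alternatives were other scalings and pseudocounts, a minimum mean, eBayes without a trend, a replicate term, other thresholds of the rule and each library left out. Python 3.11.15 with pandas 2.3.3 and numpy 2.4.6 was used for all else.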

Additional observations from a re-analysis of the deposited data

How the results depend on the processing

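With FPKM scaled by size factors, 168 genes were called higher and 188 lower in Δ*gul1*. These counts were 237 and 150 with the FPKM as deposited, 289 and 260 with a pseudocount of 0.1 and 314 and 280 with 0.01. With each library left out they lay between 163 and 181 and between 182 and 197. The rule held 144 genes, 67 at a ratio threshold of 3, 215 at a threshold of 2, 112 at a mean of 10 FPKM, 103 after scaling by size factors, and between 134 and 151 with each library left out. Of the ratios of 80 members examined, 9 moved beyond their replicate spread after scaling. None changed direction, which the ratio threshold of the rule largely fixed, the lowest ratio of any member after size-factor scaling being 2.06. The lists, as first defined by annotation terms, had 1 gene past the adjusted threshold for gluconeogenesis and acetate use, 1 for peroxide defence, 5 for glycosyltransferases (3 of them members) and 2 for conidiation, under the other scalings, pseudocounts and left-out libraries as well. Genes known by symbol were added after seeing the data, which made the first of these counts 3 (2 higher, 1 lower). With them, between 2 and 4 of its genes were higher and 0 or 1 lower over all settings (2 or 3 higher and 0 or 1 lower with each library left out), and 2 glycosyltransferase genes besides the members were higher in place of 1 with the FPKM as deposited. A replicate block gave 169 higher and 188 lower calls. Same-numbered libraries of the strains did not deviate together in all pairs (correlations of −0.09, 0.18 and 0.37), and differently numbered ones lay between −0.44 and 0.33. Deviations from a mean of 3 libraries are tied to each other, so these values cannot decide whether the numbers pair the cultures. Depth limits the members with fewest QPP fragments, whose ratios are the least certain.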
